A study of Mus musculus with 6 samples.

Results

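The 10 genes of bile acid synthesis, conjugation, transport and sensing described here were Cyp7a1, Cyp8b1, Cyp27a1, Cyp7b1, Baat, Slc27a5, Slc10a1, Abcb11, Nr1h4 and Nr0b2. They were chosen by gene symbol from the 32212 rows of a gene count table of mouse liver, and each symbol matched 1 row. Poly(A) RNA was sequenced from the livers of 3 wild-type (WT) and 3 chromogranin A knockout (CgA-KO) mice, 1 library per mouse. CgA is a prohormone of neuroendocrine cells, encoded by Chga, and CgA-KO mice carry no functional copy. All 6 mice were 2-year-old males in the C57BL/6 background on normal chow with 12 hr of dark and light. The sample titles name no treatment. The hour of tissue collection and the feeding state at collection were not given in the sources used here.

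Bile acids are made from cholesterol in hepatocytes. In the classical route Cyp7a1 adds the first hydroxyl group and sets the rate, and Cyp8b1 then steers the product towards cholic acid. In the alternative route Cyp27a1 oxidizes the side chain and Cyp7b1 hydroxylates the oxysterol that results. Slc27a5 and Baat couple the acids to coenzyme A and then to taurine, Abcb11 pumps the conjugates into bile, and Slc10a1 takes returning bile acids up from portal blood. Nr1h4 encodes the bile acid receptor FXR, which induces Nr0b2, also called SHP, a repressor of Cyp7a1 and Cyp8b1 transcription. Cyp7a1 is also known for a strong daily rhythm.

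Total counts ran from 10558616 to 31087453 per library, and all 10 genes passed the filter on low counts that left 13867 genes for testing. Levels are given in CPM, a gene's counts relative to all counts of its library, after scaling by TMM (trimmed mean of M-values) factors of 0.756 to 1.121. Chga counted 0 in each library of either genotype, so it did not check the labels, and 3 counts corresponded to between 0.0951 and 0.269 CPM. The hepatocyte markers Alb, Apoa1, Ttr and 11 others held between 7.51% and 12.2% of the counts.

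Of the 10 genes, 2 fell in CgA-KO livers, 0 rose, and 8 did not pass the test. At an unadjusted p under 0.05 in edgeR, as in DESeq2 and in limma-voom after adjustment, 3 were lower and 0 higher. Over all genes, DESeq2 called 958 lower and 1634 higher, and limma-voom 568 lower and 1253 higher. The unadjusted cut was wide, since the gene ranked 3922 of 13867 by p still had an unadjusted edgeR p of 0.0468. The 2 genes that fell were Cyp7a1, 3.08-fold higher in WT livers, and Cyp7b1, 1.86-fold higher in WT livers. They are the 7-alpha-hydroxylases of the classical and the alternative route. Calls rest on edgeR's quasi-likelihood test with a Benjamini-Hochberg adjusted p under 0.05 over all genes tested. By that rule 12.4% of all tested genes were called, 8.60% as higher and 3.84% as lower in CgA-KO. The log2 fold change (CgA-KO over WT) was negative for 8 of the 10 genes and had a median of -0.36, against -0.01 over all tested genes. It was negative for 7021 of all 13867 tested genes and for 12 of 14 hepatocyte markers, whose median was -0.20. The genotypes did not overlap in 4 of the 10 genes, Cyp7a1, Cyp7b1, Baat and Nr1h4, while 33.6% of all tested genes were without overlap. For a single gene, an exact two-sided permutation test of 3 against 3 livers cannot go below p = 0.1, which is what these 4 genes gave. The 10 genes summed to between 2752 and 3346 CPM in WT and to between 2001 and 2670 CPM in CgA-KO livers. That gap rests on the TMM factors, which were 0.756 to 1.058 in WT and 1.083 to 1.121 in CgA-KO livers. With library size alone, or relative to the hepatocyte markers, the sums of the genotypes overlapped. In whole liver, fewer cells of a type and less RNA per cell cannot be told apart.

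**Figure D1:**
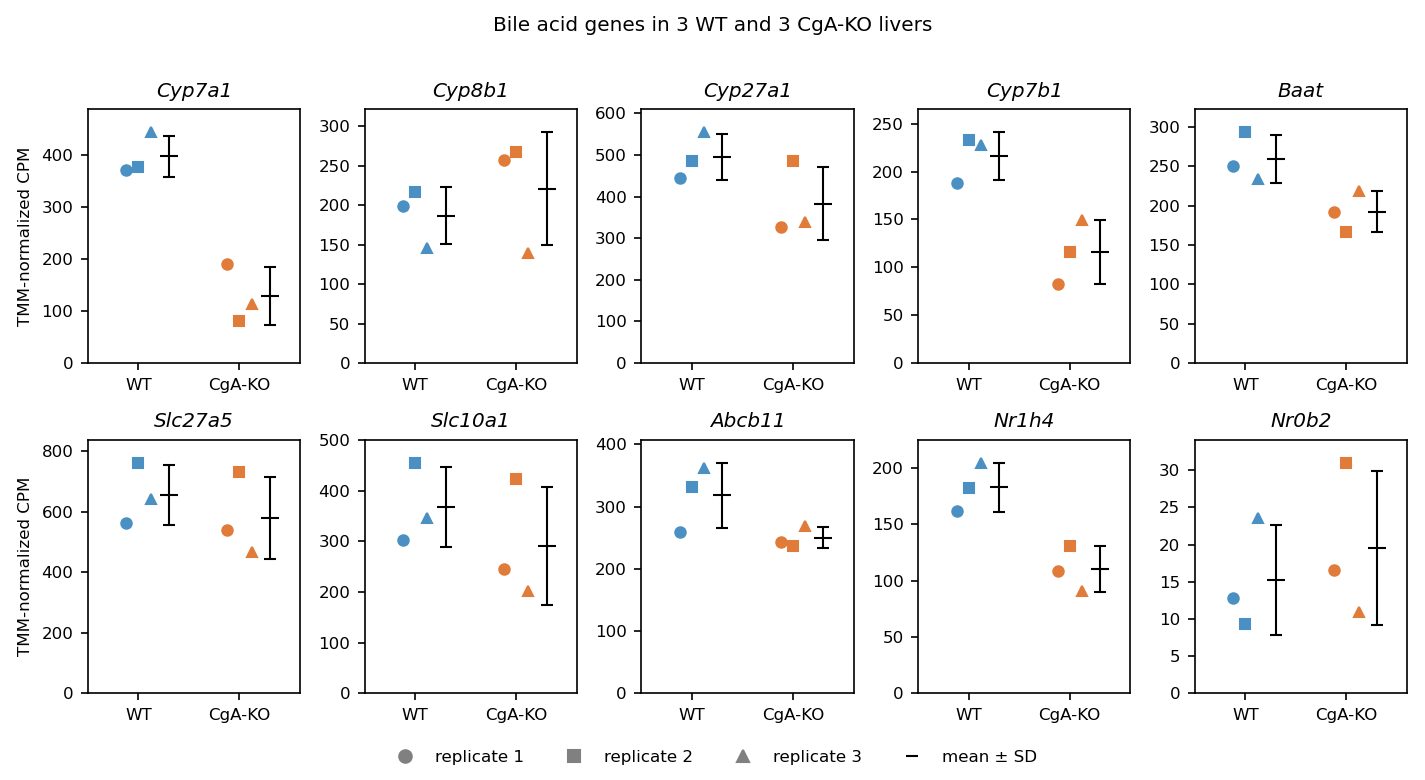
Level of each of the 10 genes in every library, in TMM-normalized CPM on axes from 0, with WT in blue, CgA-KO in orange and the mean ± SD of 3 livers beside the points. Cyp7a1 and Cyp7b1, as well as Baat and Nr1h4, show no overlap between the genotypes, whereas in Cyp8b1, Slc27a5, Slc10a1 and Nr0b2 the points of both genotypes are interleaved.

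Cyp7a1, the rate-limiting enzyme of the classical route, lies on the minus strand of chr4:6265612-6275633 (GRCm38). WT replicates 1, 2 and 3 held 370.2, 377 and 442 CPM of it, and CgA-KO replicates 1, 2 and 3 held 191, 81.0 and 114 CPM. Every CgA-KO liver was below every WT liver, and CgA-KO replicate 1 stood above its 2 group mates. Means were 396 ± 40.0 CPM in WT livers and 129 ± 56.2 CPM in the knockouts (SD, n = 3 each). On the log2 scale the change was -1.63 (SE 0.318, 95% interval -2.35 to -0.90, edgeR adjusted p = 0.0149), lower than in all but 1.18% of tested genes. Over 15 other settings at the same threshold the value ranged from -1.99 to -1.34, and the call was lost in 2 of them. A stricter threshold, an adjusted p of 0.01, also loses it. The 2 settings were a fit without WT replicate 3 (-1.54, edgeR adjusted p = 0.0691) and scaling to the hepatocyte markers (-1.38, edgeR adjusted p = 0.0598).

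Cyp8b1, the sterol 12-alpha-hydroxylase that follows Cyp7a1, lies on the minus strand of chr9:121914356-121916305. It measured 198, 216 and 146 CPM in the WT livers and 257, 267 and 139 CPM in the knockouts. Replicate 3 was lowest in both genotypes, and the ranges overlapped. Means were 187 ± 36.6 and 221 ± 71.2 CPM, and the log2 fold change was 0.24 (SE 0.291, 95% interval -0.42 to 0.90, edgeR adjusted p = 0.633).

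Cyp27a1, the mitochondrial sterol 27-hydroxylase that opens the alternative route, lies on the plus strand of chr1:74713574-74737892. It measured 445, 486 and 554 CPM in WT livers and 326, 485 and 339 CPM in the knockouts. CgA-KO replicates 1 and 3 were below every WT liver, and CgA-KO replicate 2 lay within the WT range. Its log2 fold change was -0.37 (SE 0.241, 95% interval -0.91 to 0.18, edgeR adjusted p = 0.351).

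Cyp7b1, the oxysterol 7-alpha-hydroxylase, lies on the minus strand of chr3:18071950-18243338. WT replicates 1, 2 and 3 held 188, 233 and 227 CPM, while CgA-KO replicates 1, 2 and 3 held 82.4, 116 and 149 CPM. The highest CgA-KO liver was below the lowest WT liver, with means of 216 ± 24.7 and 116 ± 33.3 CPM. It differed by -0.90 on the log2 scale (SE 0.253, 95% interval -1.47 to -0.33), and its adjusted p in edgeR, 0.0498, was just under the threshold. The call was made in 5 of 15 other settings, whose adjusted p ranged from 0.00685 in DESeq2 to 0.305 with scaling to the hepatocyte markers, while the value itself was negative in each, from -1.09 to -0.62. Among fits that left out a library, the call was lost without WT replicate 2 or 3 and without CgA-KO replicate 1 or 2.

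The conjugation enzymes did not pass the test. Slc27a5, the bile acid coenzyme A ligase (minus strand of chr7:12988346-12998192), measured 563, 762 and 643 CPM in WT livers and 539, 731 and 467 CPM in the knockouts. The ranges overlapped over most of their width, with a log2 fold change of -0.18 (SE 0.256, 95% interval -0.76 to 0.40, edgeR adjusted p = 0.689). Baat, the enzyme that joins the acid to taurine (minus strand of chr4:49489422-49506557), measured 249.98, 293 and 234 CPM in WT livers and 191, 167 and 219 CPM in the knockouts. The 3 CgA-KO livers were below the 3 WT livers, by a gap that was narrow beside the spread within each group. The log2 fold change of Baat was -0.43 (SE 0.210, 95% interval -0.91 to 0.05, edgeR adjusted p = 0.212).

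The 2 transporters did not pass the test either. Slc10a1, also called NTCP, the sodium-coupled uptake carrier of the sinusoidal membrane (minus strand of chr12:80953183-80968705), measured 303, 455 and 346 CPM in WT livers and 246, 424 and 203 CPM in the knockouts. Replicate 2 was highest in both genotypes, and CgA-KO replicate 2 lay inside the WT range. Its log2 fold change was -0.34 (SE 0.312, 95% interval -1.05 to 0.37, edgeR adjusted p = 0.516). Abcb11, the bile salt export pump of the canalicular membrane (minus strand of chr2:69238282-69342616), measured 260.0, 332 and 362 CPM in WT livers and 243, 237 and 269 CPM in the knockouts. CgA-KO replicate 3 overlapped with WT replicate 1, and the other livers of the 2 genotypes were apart. The log2 fold change of Abcb11 was -0.35 (SE 0.215, 95% interval -0.83 to 0.14, edgeR adjusted p = 0.321).

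The receptor FXR was lower in every CgA-KO liver without passing the test, and its target SHP overlapped. Nr1h4, which encodes FXR (minus strand of chr10:89454234-89533585), measured 162, 183 and 205 CPM in WT livers and 109, 131 and 90.8 CPM in the knockouts. Means were 183 ± 21.6 and 110.3 ± 20.3 CPM, and the gap between the groups was wider than either SD. The log2 fold change was -0.73 (SE 0.215, 95% interval -1.22 to -0.24), with an edgeR adjusted p of 0.0577. DESeq2 (adjusted p = 0.00685) and limma-voom (adjusted p = 0.0491) called Nr1h4, and the other 13 of 15 settings did not, with log2 fold changes from -0.84 to -0.46 over all of them.

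Nr0b2, which encodes SHP (plus strand of chr4:133553376-133556536), was the least abundant of the 10 genes. It measured 12.8, 9.32 and 23.5 CPM in WT livers and 16.6, 31.01 and 11.0 CPM in the knockouts. The highest liver was a CgA-KO and the lowest a WT, and the ranges overlapped. The log2 fold change was 0.36 (SE 0.428, 95% interval -0.61 to 1.33, edgeR adjusted p = 0.628). It became -0.12 (edgeR adjusted p = 0.894) when CgA-KO replicate 2 was left out. The SE was the largest of the 10 genes.

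**Figure D2:**
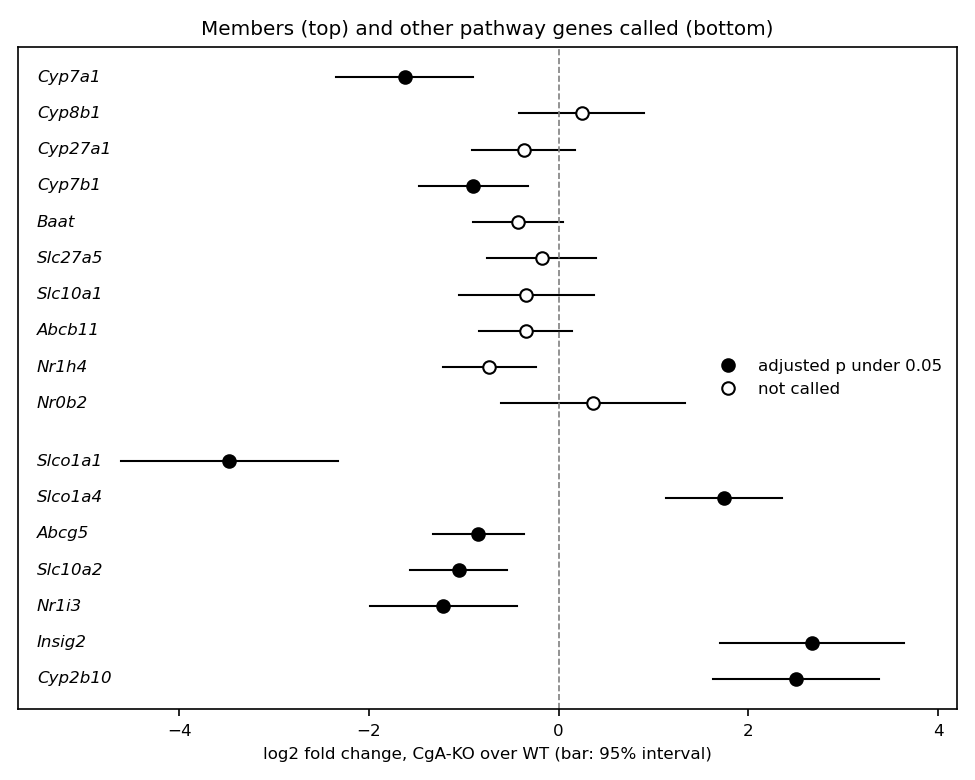
log2 fold change of CgA-KO over WT with its 95% interval for the 10 genes and, below the gap, for the 7 other pathway genes called by edgeR. Filled points have an adjusted p under 0.05, which among the 10 genes are Cyp7a1 at -1.63 and Cyp7b1 at -0.90.

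Start site sequences were read for the genes on either side of the FXR loop, since FXR is known to act on Abcb11 and Nr0b2, and SHP on Cyp8b1. RefSeq (GRCm38.p6) gave promoter windows for 6 of the 10 genes, Cyp8b1, Cyp27a1, Slc10a1, Abcb11, Nr1h4 and Nr0b2. The others were Cyp7a1, Cyp7b1, Baat and Slc27a5. Each window holds 250 bases before and 50 from the start site onwards, and the 3 shown are Abcb11 (chr2:69342567-69342866, minus strand), Nr0b2 (chr4:133553126-133553425, plus strand) and Cyp8b1 (chr9:121916256-121916555, minus strand). They are written 5′ to 3′ on the strand of the gene. Capitals mark an inverted repeat of the nuclear receptor half-site in Abcb11, CACGTG and TATAAA in Nr0b2, and TATAAA in Cyp8b1.
Abcb11: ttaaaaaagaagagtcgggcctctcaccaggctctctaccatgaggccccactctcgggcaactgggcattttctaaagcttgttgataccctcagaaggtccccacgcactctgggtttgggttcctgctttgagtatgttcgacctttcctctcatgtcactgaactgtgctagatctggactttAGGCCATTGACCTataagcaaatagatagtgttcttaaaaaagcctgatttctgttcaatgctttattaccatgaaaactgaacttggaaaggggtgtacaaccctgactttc
Nr0b2: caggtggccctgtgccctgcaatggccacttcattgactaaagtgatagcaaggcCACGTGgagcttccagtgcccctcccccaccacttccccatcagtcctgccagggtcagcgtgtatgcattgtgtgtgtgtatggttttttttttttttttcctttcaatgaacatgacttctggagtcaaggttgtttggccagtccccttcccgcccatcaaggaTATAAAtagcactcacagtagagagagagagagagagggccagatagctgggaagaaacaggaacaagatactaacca
Cyp8b1: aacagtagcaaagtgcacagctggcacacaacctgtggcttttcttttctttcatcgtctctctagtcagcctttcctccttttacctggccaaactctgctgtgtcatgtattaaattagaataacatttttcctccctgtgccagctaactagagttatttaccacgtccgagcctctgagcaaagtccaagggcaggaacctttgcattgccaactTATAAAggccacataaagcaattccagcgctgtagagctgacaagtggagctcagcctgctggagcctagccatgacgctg

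The windows were searched on both strands for AGGTCA (the nuclear receptor half-site), CAAGGTCA (the LRH-1 site, which overlaps the half-site), AGGTCANTGACCT (the inverted repeat bound by FXR, which holds 2 half-sites), TTANGTAA (the D-box), CACGTG (the E-box) and TATAAA (the TATA box). Among 32841 RefSeq promoter windows of the same length, 16.3% held AGGTCA, 1.56% CAAGGTCA, 0.00913% AGGTCANTGACCT, 2.32% TTANGTAA, 7.15% CACGTG and 13.6% TATAAA. In the Abcb11 window AGGCCATTGACCT began at -63 from the start site and differed from the inverted repeat by 1 mismatch, a closeness that 0.0822% of all windows had. It includes the half-site match at -56. The best match of the inverted repeat in the Nr0b2 window had 4 mismatches, as near as in 56.4% of windows, and that in the Cyp8b1 window had 3, as near as in 11.4% of windows. Nr0b2 held CACGTG at -195 and TATAAA at -28, and Cyp8b1 held TATAAA at -31. Among the windows not shown, that of Nr1h4 held a half-site at -214. Slc10a1, which had 2 windows, held a half-site at -87 in 1 and TATAAA on the opposite strand at -128 in the other. These matches are letters in a window and were not tested as binding sites. Of the genes whose windows are shown, 0 of 3 passed the test between the genotypes.

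Levels of different genes were compared as CPM per kilobase of exon. In WT livers the order of the mean levels was Slc27a5 at 269 ± 41.1, Cyp27a1 at 228 ± 25.5, Slc10a1 at 167 ± 35.6, Baat at 133 ± 15.7, Cyp7b1 at 99.8 ± 11.4, Cyp8b1 at 95.8 ± 18.8, Cyp7a1 at 94.97 ± 9.58, Nr1h4 at 79.5 ± 9.36, Abcb11 at 61.8 ± 10.2 and Nr0b2 at 13.4 ± 6.55 CPM per kilobase (SD, n = 3). Neighbours in that order overlapped in their ranges, except that Baat was above Cyp7b1 and Abcb11 above Nr0b2 in every WT liver. In CgA-KO livers Slc27a5 at 238 ± 56.0, Cyp27a1 at 176 ± 40.5 and Slc10a1 at 132 ± 53.2 again came first. Below them Cyp8b1 stood at 113 ± 36.5, Baat at 99.1 ± 13.3, Cyp7b1 at 53.5 ± 15.4, Abcb11 at 48.5 ± 3.29, Nr1h4 at 47.9 ± 8.81, Cyp7a1 at 30.8 ± 13.5 and Nr0b2 at 17.3 ± 9.13 CPM per kilobase. Among neighbours in the CgA-KO order, Baat and Cyp7b1 were without overlap. Cyp7a1 thus stood at place 7 among the 10 genes in WT and at place 9 in CgA-KO livers, beside Cyp8b1 at places 6 and 4.

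Ratios of the counts of 2 genes within a library do not depend on how libraries are scaled. Cyp8b1 to Cyp7a1, the balance of the 12-alpha-hydroxylase to the first enzyme, was 0.536, 0.574 and 0.3298 in WT and 1.35, 3.29 and 1.22 in CgA-KO livers. Every CgA-KO liver held more Cyp8b1 than Cyp7a1 counts, and every WT liver fewer. These counts are not corrected for length, and Cyp7a1 has 4174 exon bases against 1950 in Cyp8b1. Per kilobase of exon, Cyp8b1 was above Cyp7a1 in WT replicate 1 (101.7 against 88.7) and WT replicate 2 (110.9 against 90.2). It was below Cyp7a1 in WT replicate 3 (74.8 against 106.0), so a count ratio under 1 does not mean that Cyp7a1 was the more abundant. The log2 ratio was 1.91 higher in CgA-KO livers, or 3.76-fold, with p = 0.1 in an exact two-sided permutation test, the smallest the design allows (0.3 when adjusted over the 6 ratios). Leaving out each liver in turn gave differences from 1.46 to 2.18.

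Nr0b2 to Nr1h4, the target SHP relative to its activator FXR, was 0.0792, 0.0510 and 0.115 in WT and 0.153, 0.236 and 0.121 in CgA-KO livers. The groups did not overlap, although WT replicate 3 and CgA-KO replicate 3 lay close to each other. The ratio was 2.11-fold higher in CgA-KO livers, 1.08 on the log2 scale, with the same p = 0.1 in the exact permutation test and from 0.78 to 1.36 on the log2 scale with a liver left out.

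The other 4 ratios overlapped between the genotypes. Cyp7b1 to Cyp7a1, the alternative against the classical 7-alpha-hydroxylase, was 0.507, 0.620 and 0.514 in WT and 0.433, 1.44 and 1.31 in CgA-KO livers (exact permutation p = 0.4). CgA-KO replicate 1 was low and the other CgA-KO livers were above every WT liver. Cyp7b1 to Cyp27a1 was 0.422, 0.480 and 0.410 in WT and 0.253, 0.240 and 0.440 in CgA-KO livers (exact permutation p = 0.3). Abcb11 to Slc10a1, export against uptake, was 0.858, 0.729 and 1.05 in WT and 0.989, 0.559 and 1.32 in CgA-KO livers (exact permutation p = 1). Baat to Slc27a5, the 2 steps of conjugation, was 0.444, 0.385 and 0.364 in WT and 0.355, 0.228 and 0.468 in CgA-KO livers (exact permutation p = 0.6).

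**Figure D3:**
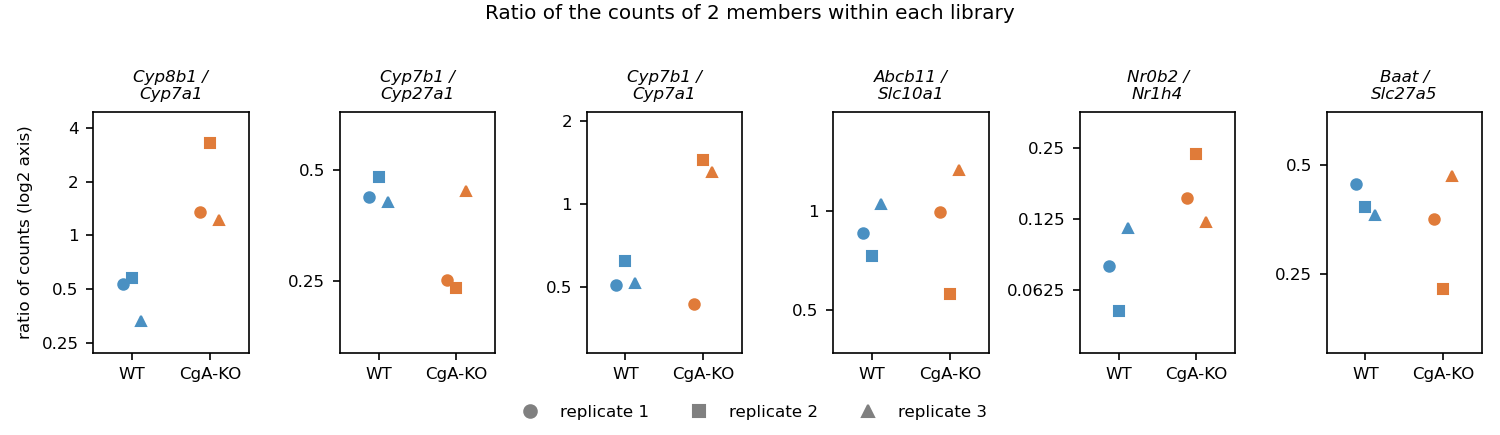
Ratio of the counts of 2 genes within each library on a log2 axis, for 6 ratios, with WT in blue, CgA-KO in orange and the marker shape giving the replicate number. Cyp8b1 to Cyp7a1, from 0.3298 to 0.574 in WT and from 1.22 to 3.29 in CgA-KO livers, and Nr0b2 to Nr1h4 are the ratios without overlap, and the vertical ranges differ between panels.

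Around these genes, 55 others of the pathway were tested in 5 lists, some in more than 1, and 3 rose and 4 fell. Those 7 calls are near the share over all tested genes, of which edgeR called 12.4%, 8.60% as higher and 3.84% as lower. The counts of each list below are to be read beside these shares. Of 12 other enzymes of synthesis, such as those that remodel the ring and shorten the side chain, 0 passed the test in edgeR, with a median log2 fold change of -0.25. At an unadjusted p under 0.05 edgeR held 1 higher and 1 lower, DESeq2 called 1 lower, and limma-voom called 0. The genes of that group farthest from 0 were Cyp46a1, the cholesterol 24-hydroxylase (-1.73, edgeR adjusted p = 0.0758), and Amacr, the racemase of the side chain (-0.49, edgeR adjusted p = 0.187). Both were lower in each CgA-KO liver than in any WT liver. Of the 12 enzymes, 4 had a positive and 8 a negative log2 fold change. In either direction 6 of the 12 were without overlap, as were 33.6% of all tested genes.

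Of 13 other transporters, 1 rose and 3 fell, with a median of -0.33. Slco1a1, an organic anion carrier of the sinusoidal membrane, measured 127, 262 and 229 CPM in WT livers and 6.78, 22.2 and 26.8 CPM in the knockouts (log2 fold change -3.47, SE 0.505, edgeR adjusted p = 0.00583). Slco1a4, its neighbour on chromosome 6, went the other way, from 39.1, 52.2 and 73.1 CPM in WT to 212, 189 and 149.8 CPM in CgA-KO livers (1.74, SE 0.270, edgeR adjusted p = 0.00708). Both changes were larger than the spread within each genotype. The Slco1a genes are similar in sequence, and how reads were shared among them was decided by the quantifier.

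Abcg5, which forms the canalicular sterol exporter with Abcg8, fell from 92.8 ± 10.2 to 51.5 ± 11.0 CPM (log2 fold change -0.85, edgeR adjusted p = 0.0329). Slc10a2, the apical bile acid carrier of bile duct cells and ileum, fell from 23.4 ± 6.30 to 11.2 ± 0.407 CPM (-1.05, edgeR adjusted p = 0.0200). Summed bile duct cell markers, at 35.1 to 48.0 CPM in WT and 33.9 to 92.2 CPM in CgA-KO livers, overlapped between the genotypes. The transporters farthest from 0 among those that did not pass were Abcc4, a basolateral exporter (1.62, edgeR adjusted p = 0.0574), and Slco1b2, a hepatocyte uptake carrier (-0.84, edgeR adjusted p = 0.0889).

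Of 18 other regulators, 1 rose and 1 fell. Insig2, which holds the sterol sensor SCAP in the endoplasmic reticulum, measured 47.1, 107.7 and 60.2 CPM in WT livers and 374, 290.1 and 712 CPM in the knockouts, 6.39-fold higher in the latter (log2 fold change 2.68, SE 0.428, edgeR adjusted p = 0.00778). Nr1i3, the xenobiotic receptor CAR, fell from 1054 ± 393 to 453 ± 105 CPM (-1.22, edgeR adjusted p = 0.0496), with WT replicate 2 at 614 CPM near the highest CgA-KO liver at 543 CPM. Over 15 other settings Slc10a2 kept its call in 9, Abcg5 in 8 and Nr1i3 in 5. Jun, a subunit of AP-1 (1.39, edgeR adjusted p = 0.0549), and the vitamin D receptor Vdr (1.28, edgeR adjusted p = 0.445) did not pass, and Vdr was under 1 CPM in each library.

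Of 12 FXR targets tested, among them Nr0b2, Abcb11, Baat and Slc27a5, 0 passed the test in edgeR, DESeq2 or limma-voom, 1 was lower at an unadjusted p under 0.05 in edgeR, and the median was -0.12. Pltp, the phospholipid transfer protein (0.84, edgeR adjusted p = 0.404), rested on 169.9 CPM in CgA-KO replicate 2. Osgin1 (-0.70, edgeR adjusted p = 0.158) was highest in WT replicate 3 at 280.0 CPM. Of 6 genes of hydroxylation and sulfation, 1 rose, Cyp2b10, a cytochrome P450 that CAR induces, from 4.48, 6.30 and 7.71 CPM in WT to 40.3, 48.5 and 17.1 CPM in CgA-KO livers (2.50, SE 0.385, edgeR adjusted p = 0.00703). Sult2a8, a bile acid sulfotransferase of mouse liver (-1.35, edgeR adjusted p = 0.0642), and Cyp3a13 (0.35, edgeR adjusted p = 0.271) did not pass.

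Clock genes, sex-biased genes and markers of other cells also moved with genotype, and their part in the values above was not tested. Over all tested genes, edgeR called 8.60% as higher and 3.84% as lower in CgA-KO livers. Of 14 clock genes, 4 rose and 6 fell, with Arntl, the positive arm of the clock, at 4.44 and Per3, of the negative arm, at -3.16 (edgeR adjusted p = 0.00164 and 0.00247). Summed clock levels ran from 774 to 1102 CPM in WT and from 414 to 512 CPM in CgA-KO livers. That sum mixes both directions and is carried by abundant genes that fell, while mean Arntl went from 0.81 to 16.8 CPM. Of 13 male-biased liver genes 4 fell, led by Serpina1e (-4.92) and Hsd3b5 (-7.21), and of 10 female-biased genes 6 rose and 1 fell, led by Sult1e1 (4.30) and Cyp3a44 (3.41), while limma-voom called 3 of the female-biased genes higher and 1 lower. Slco1a1 is among the male-biased genes too. Of 10 Kupffer cell markers 9 rose, led by Adgre1 and Vsig4, and their sum was 131 to 342 CPM in WT and 1431 to 2057 CPM in CgA-KO livers. Of 9 lymphocyte and neutrophil markers 7 rose, from sums of 16.5 to 52.8 CPM to sums of 101 to 302 CPM, led by S100a8 (3.81) and Cd3e (3.60), and limma-voom called 5. Of 8 stellate cell markers 3 rose, led by Rgs5 (1.31) and Reln (0.91), and of 8 sinusoidal endothelial markers Lyve1 rose (2.81) and Clec4g fell (-1.11), where DESeq2 called 3 higher and 1 lower. Of 7 bile duct cell markers, 0 passed in edgeR, DESeq2 or limma-voom, and 1 was higher at an unadjusted p under 0.05 in edgeR. No marker of these lists was at 0 in all 6 libraries. Of 14 hepatocyte markers, 0 passed in edgeR or limma-voom, 1 was lower in DESeq2 and at an unadjusted p under 0.05 in edgeR, and the 14 had a median log2 fold change of -0.20, and their sum overlapped, at 77057 to 124064 CPM in WT and 69390 to 110827 CPM in CgA-KO livers. Of pericentral and of periportal hepatocyte markers, 1 of 10 each rose in edgeR (Rhbg at 1.90 and Ctsc at 1.54), 3 of 10 each were higher at an unadjusted p under 0.05, and DESeq2 called 2 and 3 higher. With libraries scaled to the hepatocyte markers, the calls of both Cyp7a1 (-1.38) and Cyp7b1 (-0.66) were lost. Under that scaling the calls over all genes went from 1726 to 839.

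**Figure D4:**
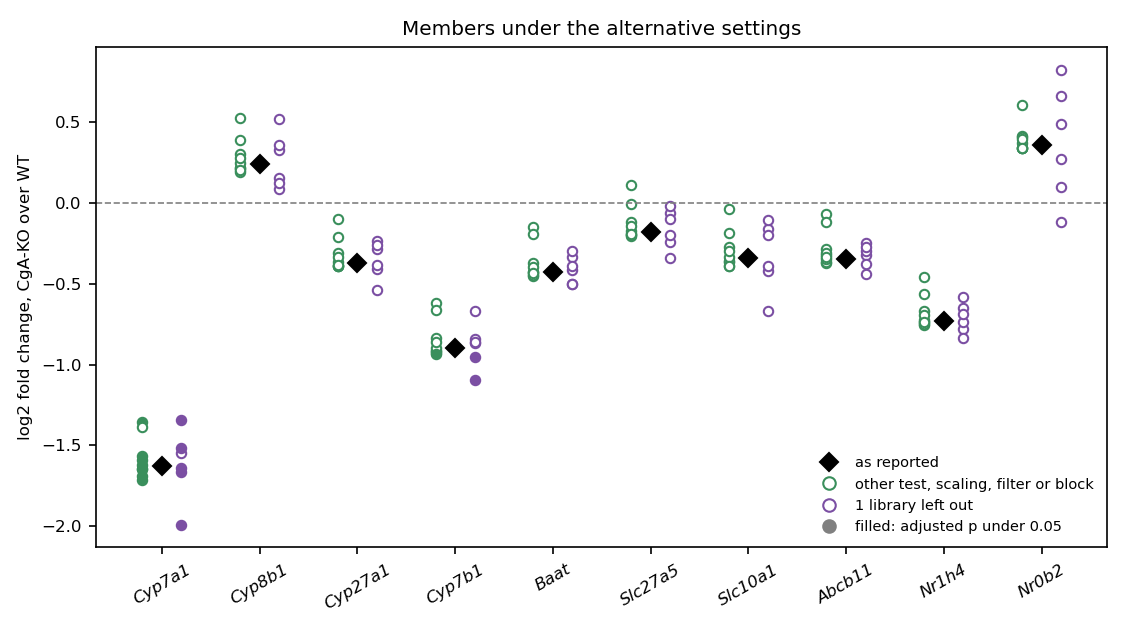
log2 fold change of each of the 10 genes as reported (diamonds), under other tests, scalings, filters or the replicate block (green) and with 1 library left out (purple), where filled circles have an adjusted p under 0.05. Cyp7a1 stays between -1.99 and -1.34, whereas Slc27a5 and Nr0b2 reach both sides of 0.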

How the data were processed

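Poly(A) RNA from 3 WT and 3 CgA-KO livers was sequenced on paired ends. The authors deposited raw counts per gene, made with Salmon 1.4.0 on the GRCm38 transcriptome per the labels. How transcript estimates became whole counts per gene is not given in the sources used here. Counts were tested as deposited with edgeR 4.0.16 (R 4.3.3): genes kept by filterByExpr with a minimum count of 10, TMM scaling, robust quasi-likelihood test, two-sided, Benjamini-Hochberg over 13867 genes. Intervals are 95% t intervals with the degrees of freedom of that fit. Alternatives used DESeq2 1.42.0, limma 3.58.1 (voom), 4 other scalings, 2 other filters, an adjusted p of 0.01, the replicate number as a block and each library left out. Coordinates and exon lengths come from GENCODE release M21 (GRCm38). Floors in CPM are 3 counts of a library and cover counting error only. The tests were checked on simulated data. The 10 genes were chosen by symbol, all 10 are described, and of the pathway lists each called gene and the 2 uncalled genes of a list with the largest absolute change are named. Of the clock, sex-biased and marker lists the 2 called genes with the smallest p are named. Genes and lists were chosen with earlier results of these data known, so no list is independent evidence.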

Additional observations from a re-analysis of the deposited data

How the results depend on the processing

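Of the 10 bile acid genes, 2 were called as reported, 3 by DESeq2 and by limma-voom, and 1 with DESeq2 size factors in edgeR, with library size alone, with upper quartile scaling, with all genes of at least 1 count in total, and with at least 10 counts in every library. With scaling to hepatocyte markers, or an adjusted p of 0.01, 0 were called, and with a library left out the count ran from 0 (without WT replicate 3) to 2, with 1 without WT replicate 2, CgA-KO replicate 1 or CgA-KO replicate 2. Of the other pathway genes, 7 were called, against 14 by DESeq2, 4 with hepatocyte scaling, 4 at an adjusted p of 0.01 and 4 to 9 with a library left out, the low end without WT replicate 2, WT replicate 3 or CgA-KO replicate 3. They split into 3 higher and 4 lower, and with library size alone into 5 higher and 1 lower. Over all genes, 1726 were called, against 2592 by DESeq2, 839 with hepatocyte scaling, 360 at an adjusted p of 0.01 and 394 (without WT replicate 3) to 2126 with a library left out, with 841, 744 and 976 in the fits that lacked WT replicate 2, CgA-KO replicate 1 and CgA-KO replicate 2. Genes without overlap numbered 4, and 2 with library size alone (Cyp7a1 and Cyp7b1) or with hepatocyte scaling (Cyp7a1 and Nr1h4). The causes were not tested.

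Library size alone moved the median change over the whole table from -0.01 to 0.26 and the share of calls that were higher from 69.1% to 86.6%, and hepatocyte scaling moved them to 0.19 and 87.0%. Without WT replicate 2 that share was 55.8% and without CgA-KO replicate 1 it was 80.5%. Slc27a5 changed sign with library size alone (0.11), which is below that shift of the median, and Nr0b2 ran from -0.12 without CgA-KO replicate 2 to 0.82 without WT replicate 3, neither being called. Of the pathway genes, Slco1a1 and Slco1a4 kept their call in 15 of 15 settings at an adjusted p under 0.05, and Insig2 (not without WT replicate 3) and Cyp2b10 (not without WT replicate 2) in 14. Same-numbered WT and CgA-KO libraries correlated at 0.20, 0.01 and -0.07 in their deviations from the group means. Differently numbered ones correlated at -0.26 to 0.23. The sample titles do not say whether a replicate number marks a shared batch, and correlations within groups of 3 cannot settle it. With the replicate number as a block, 2 of the 10 genes, 5 other pathway genes and 1498 of all genes were called. No member symbol had a second row to sum. The 3 livers per genotype and their spread set the width of the intervals.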
